A study of Mus musculus with 25 samples.

Results

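Bile acids enter and leave the hepatocyte through a small set of membrane transporters, and 10 of their genes were followed here in sorted mouse hepatocytes whose Hippo pathway had been disturbed. The genes were taken by name, by the side of the cell on which their proteins work: the uptake carriers Slc10a1, Slco1a1, Slco1a4 and Slco1b2, the canalicular exporters Abcb11 and Abcc2, and the sinusoidal exporters Abcc3, Abcc4, Slc51a and Slc51b. All 10 were in the table of 37117 genes. Levels come from counts of 3′ transcript ends in 25 libraries of 7 groups. Mice of the strain ApoE-rtTA, TRE-hYAP, labelled ApoYap, carry a human YAP transgene that a doxycycline-responsive activator, driven by an ApoE promoter, switches on. They were sampled untreated (ApoYap ctrl, n = 4) and after 1 week of doxycycline (ApoYap Dox, n = 3), so both groups carry the transgene. Lats1flox/flox; Lats2flox/flox mice were sampled untreated (Lats1/2 flox ctrl, n = 4) and 1 week after injection of an adeno-associated virus that expresses Cre under the hepatocyte promoter TBG (Lats1/2 KO, n = 3). C57BL/6 mice were sampled untreated (BL/6 ctrl, n = 4), after 1 week of doxycycline (BL/6 Dox, n = 4) and 24 hours after the virus (BL/6 AAV-Cre, n = 3). Doxycycline was given at 0.2 mg/ml in drinking water with 2.5% sucrose. The labels give no age and do not say whether the replicates of a group are separate animals, so p-values measure only the spread between these libraries, which may be technical.

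Hepatocytes take bile acids up from blood at the sinusoidal membrane and pump them into the bile canaliculus at the opposite membrane. NTCP, the product of Slc10a1, carries conjugated bile acids together with sodium, and the OATP carriers encoded by the Slco1 genes take up unconjugated bile acids and other organic anions without sodium. BSEP (Abcb11) and MRP2 (Abcc2) export into bile, whereas MRP3 (Abcc3), MRP4 (Abcc4) and the OSTα-OSTβ dimer (Slc51a, Slc51b) send bile acids back to blood. In cholestasis the liver is known for lowering uptake and raising sinusoidal export. Bile acids act on the nuclear receptor FXR (Nr1h4), which induces Abcb11, Slc51a, Slc51b and the repressor SHP (Nr0b2). YAP is a transcriptional coactivator that binds TEAD factors, and the kinases LATS1 and LATS2 keep it out of the nucleus.

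Library totals lay between 8107539 and 16515330 counts, and 1 count was worth 0.036 to 0.14 CPM after TMM scaling, a count set against the library's scaled size and the unit of all levels below unless another is named. Lats1 checks the knockout labels: it stood at 2.97 to 5.10 CPM in Lats1/2 KO and 12.3 to 14.9 CPM in Lats1/2 flox ctrl (log2 fold change −1.67, edgeR adjusted p = 4.1e-06), while Lats2 gave −0.13 (adjusted p = 0.65). The labels do not say which parts are floxed, and a 3′ count outside the deleted part checks nothing. RNA of the human transgene was not analysed here. All 9 matched hepatocyte markers were present in every group, Alb at 21750 to 67310 CPM. Markers of other liver cells moved with the treated groups. All 12 macrophage markers rose in both. Their sum, in CPM without TMM scaling, lay between 77.8 and 184.5 in ApoYap ctrl and between 10770 and 18700 in ApoYap Dox. It lay between 71 and 225.4 in Lats1/2 flox ctrl and between 743 and 1941 in Lats1/2 KO. All 10 endothelial markers rose in both as well. Hepatocyte markers fell, 9 of 9 in ApoYap Dox and 8 of 9 in Lats1/2 KO. Mitochondrial genes held 9.15 to 12.25% of counts in ApoYap Dox and 21.5 to 24.8% in ApoYap ctrl. The part of these shifts in the transporter values was not tested. In bulk RNA, fewer hepatocytes and less RNA of a gene per hepatocyte cannot be told apart. Scaling by total counts alone raised the median log2 fold change of all genes by 0.92 in ApoYap Dox and by 0.47 in Lats1/2 KO, so changes of about that size depend on the scaling. With it, 84% of the genes called in ApoYap Dox were higher, against 52.2% with TMM, and 91% against 54.2% in Lats1/2 KO.

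The sequences just upstream of the starts of 6 members are shown because 4 of these genes fell together and 2 rose after Yap induction. Each run holds the 250 bases before the RefSeq start in GRCm38.p6, 5′ to 3′ on the gene's strand, and capitals mark motif matches. Slc10a1 and Abcc4 have 2 RefSeq starts, and the first listed is shown. They lie at chr12:80968706-80968955 (minus strand) for Slc10a1, chr6:141629268-141629517 (plus) for Slco1b2, chr6:141946963-141947212 (minus) for Slco1a1, chr6:141856221-141856470 (minus) for Slco1a4, chr2:69342617-69342866 (minus) for Abcb11 and chr14:118706220-118706469 (minus) for Abcc4.
Slc10a1: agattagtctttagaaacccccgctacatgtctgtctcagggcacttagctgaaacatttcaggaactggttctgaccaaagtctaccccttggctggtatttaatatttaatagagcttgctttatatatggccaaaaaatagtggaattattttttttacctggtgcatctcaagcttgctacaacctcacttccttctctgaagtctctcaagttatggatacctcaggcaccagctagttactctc
Slco1b2: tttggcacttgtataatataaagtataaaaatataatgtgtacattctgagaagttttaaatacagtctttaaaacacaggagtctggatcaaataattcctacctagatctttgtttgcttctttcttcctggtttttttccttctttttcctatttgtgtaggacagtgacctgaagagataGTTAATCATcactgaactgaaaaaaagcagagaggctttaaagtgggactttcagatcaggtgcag
Slco1a1: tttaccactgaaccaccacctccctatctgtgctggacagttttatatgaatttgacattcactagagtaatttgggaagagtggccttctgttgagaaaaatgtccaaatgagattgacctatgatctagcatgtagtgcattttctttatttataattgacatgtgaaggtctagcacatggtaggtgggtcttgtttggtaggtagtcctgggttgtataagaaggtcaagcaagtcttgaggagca
Slco1a4: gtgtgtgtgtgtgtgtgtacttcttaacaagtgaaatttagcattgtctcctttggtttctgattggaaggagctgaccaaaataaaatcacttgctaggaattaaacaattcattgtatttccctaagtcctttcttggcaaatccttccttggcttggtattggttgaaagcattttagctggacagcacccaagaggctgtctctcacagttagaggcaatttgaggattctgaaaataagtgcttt
Abcb11: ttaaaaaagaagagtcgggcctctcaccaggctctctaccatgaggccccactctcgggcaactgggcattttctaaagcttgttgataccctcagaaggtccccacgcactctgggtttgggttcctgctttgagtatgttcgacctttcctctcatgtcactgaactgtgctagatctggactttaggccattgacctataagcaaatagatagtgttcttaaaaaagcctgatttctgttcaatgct
Abcc4: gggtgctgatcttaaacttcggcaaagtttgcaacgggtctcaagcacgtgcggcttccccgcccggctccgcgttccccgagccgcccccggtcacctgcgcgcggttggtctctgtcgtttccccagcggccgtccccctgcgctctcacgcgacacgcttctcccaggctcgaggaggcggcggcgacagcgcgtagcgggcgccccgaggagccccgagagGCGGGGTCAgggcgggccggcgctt

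RefSeq windows, running to 50 bases past the start, were found for 9 of the 10 members. They numbered 11, with 2 each for Slc10a1 and Abcc4. Both strands were searched for 5 motifs. The HNF1 motif GTTAATNAT occurred in 1 member, Slco1b2, as GTTAATCAT from position −66 (counted from the start), and in 0.801% of all 32851 promoters. The NRF2 motif TGACNNNGC occurred in 2 members and 3 of the 11 windows, against 12.4% of promoters. At the first start of Abcc4 its complement GCGGGGTCA begins at −25, and at the second start TGACTCTGC begins at −23. In Abcc2 TGACATAGC begins at −98. The TEAD motif GGAATG was found in 2 members, Slco1a1 (from position 14, past the start) and Slc51b (from −14), and in 14.7% of promoters. The FXR inverted repeat GGTCANTGA (0.84% of promoters) and the HNF4A motif CAAAGTCCA (0.475%) occurred in none of the 9. The Abcc4 stretch was 72% G or C, and the stretches of the other 5 genes printed held 33.6 to 46.4%. A match is a run of letters and not a binding site. Only exact letters in these short windows were searched, so the lack of a match says nothing about the factor.

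After Yap induction the main uptake carriers fell to a few percent of their untreated level, both canalicular exporters fell, and 2 minor members, Slco1a4 and Abcc4, rose. Of the 9 members with enough counts to test, 2 rose and 6 fell at an edgeR quasi-likelihood adjusted p under 0.05. Among all 12970 genes tested 67.0% were called, 35.0% higher and 32.0% lower, so the count of called members by itself says little beyond that background. Their median log2 fold change was −1.37, against 0.07 over all genes. Treated and untreated libraries did not overlap in 8 of the 9, against 69.4% of all genes.

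Slco1b2 (chr6:141629518-141686646), which encodes the main hepatic OATP, was the most abundant member in untreated liver. It was at 1126, 1468, 1288 and 1206 CPM in ApoYap ctrl and at 23.7, 26.96 and 18.8 CPM in ApoYap Dox. Every treated library lay far under every untreated one. The log2 fold change was −5.78 (SE 0.37, adjusted p = 7.4e-12), 54.9-fold lower.

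Slc10a1 (chr12:80953183-80968705) stood at 279.5, 302, 255 and 315 CPM in ApoYap ctrl. In ApoYap Dox it was at 4.19, 9.86 and 5.98 CPM. The groups were again wide apart, and the level was 43.2-fold lower (log2 fold change −5.43, adjusted p = 1.7e-12, SE 0.32).

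Slco1a1 (chr6:141907282-141946962) followed the same course. Its 4 untreated libraries held 285, 286, 272 and 241 CPM, and its 3 treated libraries 7.95, 6.79 and 4.54 CPM. The log2 fold change was −5.39 (adjusted p = 1.1e-14, SE 0.26). Relative to Alb within a library, Slco1b2, Slc10a1 and Slco1a1 differed by −4.87, −4.59 and −4.51 on the log2 scale, with no overlap.

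Slco1a4 (chr6:141805440-141856199) moved the other way. This OATP lies between Slco1b2 and Slco1a1 in a cluster of 6 Slco1 genes on chromosome 6. It was at 23.7, 10.3, 24.6 and 31.1 CPM in ApoYap ctrl and at 80.3, 101 and 66.3 CPM in ApoYap Dox. The lowest treated library was above the highest untreated one, and the log2 fold change was 1.88 (SE 0.31, adjusted p = 2e-05), 3.69-fold higher. The other genes of the cluster gave almost no reads: Slco1c1 had 14 counts in all 25 libraries, Slco1a6 had 21 and Slco1a5 none. How the authors' counting treated reads shared by such paralogs is not given in the sources used here.

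The summed uptake members went from 1854 ± 151.5 CPM (SD, n = 4) to 119 ± 24.4 CPM (n = 3). Because Slco1a4 rose while the others fell, the make-up of what remained differed from that of untreated cells. Slco1a4 gave 1.24 ± 0.52% of the counts of the 4 uptake members in ApoYap ctrl and 69.4 ± 0.33% in ApoYap Dox, with each treated library between 69.1 and 69.8%. Slco1b2 went from 68.5 ± 2.5% to 19.6 ± 0.87% of these counts. Such shares are taken within a library and do not depend on scaling. Counts of 3′ ends do not grow with transcript length, but the capture of an end can differ between genes.

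**Figure D1:**
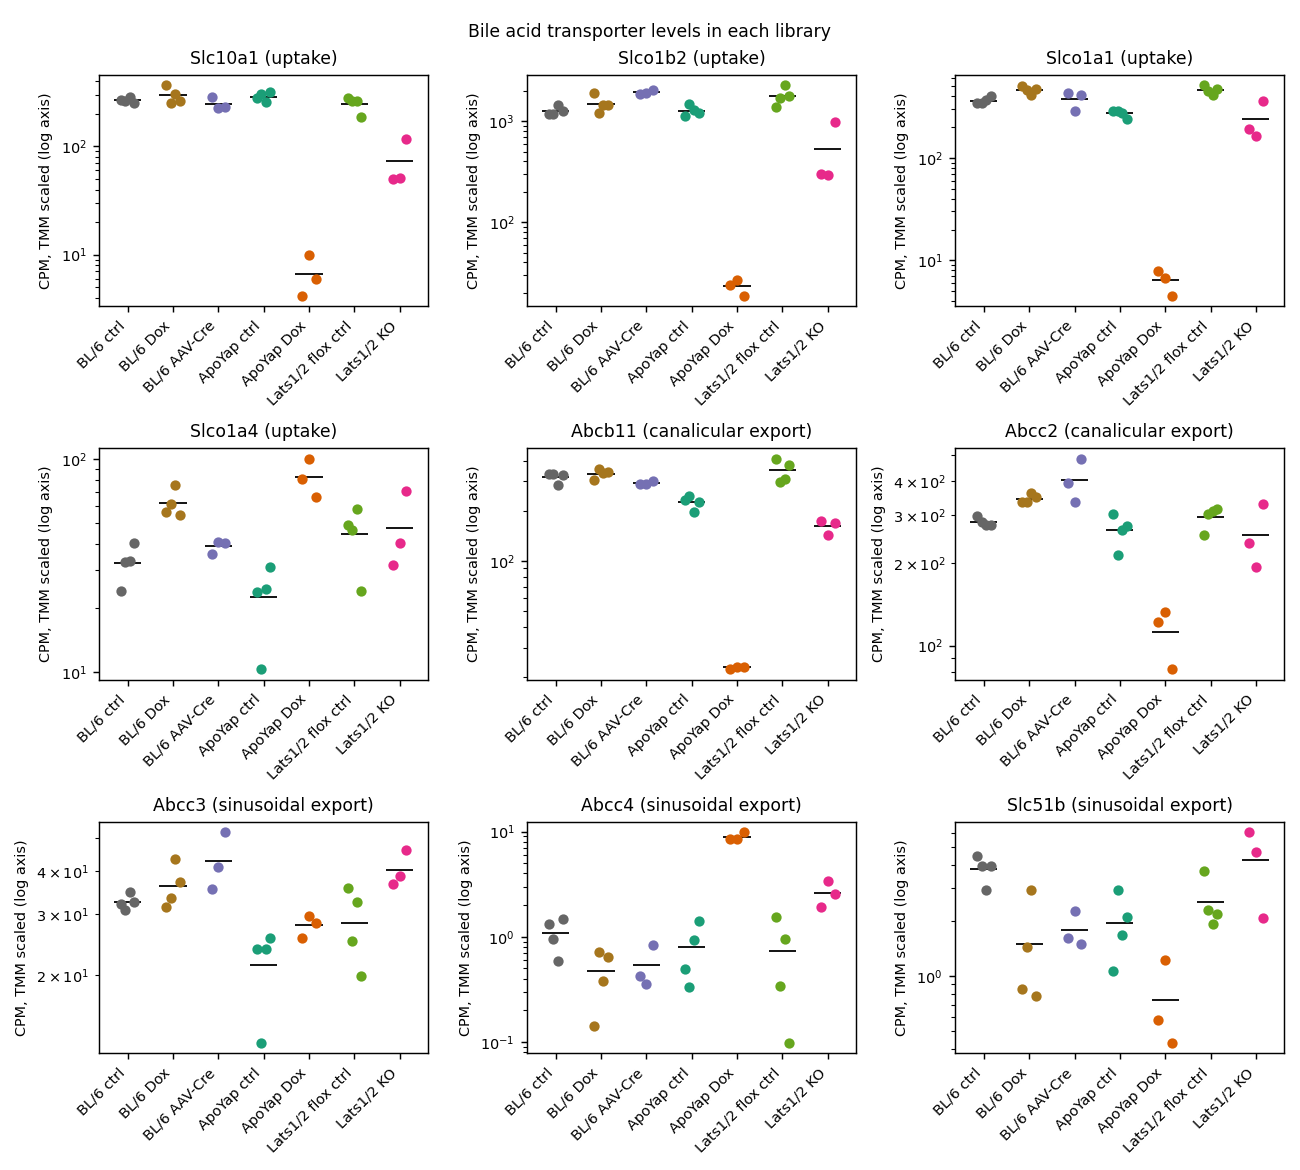
Level of each of the 9 detected members in every library, in CPM with TMM scaling on a log axis, by group; points are libraries and bars group means. The ApoYap Dox libraries (orange) are lowest for Slc10a1, Slco1b2, Slco1a1, Abcb11 and Abcc2 and highest for Abcc4. Their mean is highest for Slco1a4, where they overlap libraries of other groups. Lats1/2 KO (pink) lies between ApoYap Dox and the controls for Slc10a1, Slco1b2 and Abcb11.

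At the canalicular membrane, Abcb11 (chr2:69238282-69342616), whose product BSEP is the main bile salt pump, fell by an order of magnitude. It was at 233, 247, 198 and 227 CPM in ApoYap ctrl and at 22.4, 23.2 and 23.2 CPM in ApoYap Dox. The treated libraries were close to each other and far from the untreated ones (log2 fold change −3.30, SE 0.13, adjusted p = 4.2e-16). An antisense gene, Gm13613, overlaps its exons in the annotation, and whether counting used strand is not given in the sources used here.

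Abcc2 (chr19:43782192-43840740), the exporter of conjugated bilirubin and glutathione conjugates, fell less. It was at 304, 215, 265 and 274 CPM in untreated and at 122, 133 and 82.0 CPM in treated libraries, which did not overlap. The log2 fold change was −1.24 (SE 0.17, adjusted p = 5.9e-07), and −0.33 (adjusted p = 0.048) with scaling by total counts alone. Within a library, its level relative to Alb differed by −0.34 on the log2 scale and the groups overlapped, while Abcb11 relative to Alb differed by −2.38 with no overlap.

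The sinusoidal exporters split. Abcc4 (chr14:118482692-118706219), which exports bile acids with glutathione and is low in healthy hepatocytes, had 7, 4, 9 and 14 counts in the ApoYap ctrl libraries (0.49, 0.34, 0.93 and 1.40 CPM). In ApoYap Dox it had 235, 189 and 205 counts (8.49, 8.55 and 9.89 CPM). All treated libraries were above all libraries of every other group, and the log2 fold change was 3.53 (SE 0.46, adjusted p = 2.9e-07), 11.6-fold higher.

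Abcc3 (chr11:94343295-94392997) was at 23.7, 12.7, 23.8 and 25.6 CPM in ApoYap ctrl and at 25.6, 29.7 and 28.3 CPM in ApoYap Dox. The lowest treated library was level with the highest untreated one to 3 digits. The log2 fold change of 0.38 (SE 0.19) did not pass the test (adjusted p = 0.084). It passed with DESeq2 (0.49, adjusted p = 0.029), with RLE scaling (0.49, adjusted p = 0.028), with total counts alone (1.29, adjusted p = 4.6e-06) and without ApoYap ctrl 4 (0.47, adjusted p = 0.047).

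Slc51b (chr9:65412714-65422955) was low throughout, at 1.06, 2.93, 1.66 and 2.10 CPM untreated and 0.58, 1.22 and 0.43 CPM treated. The groups overlapped. Its log2 fold change of −1.37 (SE 0.46, adjusted p = 0.011) was no longer called with total counts alone (−0.47, adjusted p = 0.35) or without ApoYap ctrl 2 (−1.08, adjusted p = 0.055), ApoYap Dox 1 (−1.20, adjusted p = 0.052) or ApoYap Dox 3 (−1.11, adjusted p = 0.062). Its 3′ end overlaps Rasl12 on the opposite strand, which had 7 counts in all libraries. Slc51a (chr16:32474504-32487879), which encodes the partner needed for OSTβ to reach the membrane, had 0 counts in 24 of 25 libraries and 1 count in Lats1/2 KO 2. It was not tested, and 0 counts allow up to 0.18 to 0.37 CPM without TMM scaling, a limit of 3 counts per library that covers counting error only. Its 3′ end overlaps an exon of Pcyt1a on the opposite strand, which had 18061 counts in all libraries. Whether the counting used strand is not given in the sources used here. The 0 therefore limits the reads assigned to Slc51a and not its RNA.

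Lats1/2 knockout moved the same uptake carriers down by less and raised the MRP-type sinusoidal exporter Abcc4. Abcc3 was called higher as well, but its call was lost in some of the other fits given below. Of the 9 members tested, 2 rose and 4 fell. Among all genes 38.0% were called, 20.6% higher and 17.4% lower. The members' median log2 fold change was −0.22, against −0.03 over all genes, and 6 members did not overlap between groups, against 39.7% of all genes.

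Slco1b2 was at 1380, 1713, 2279 and 1783 CPM in Lats1/2 flox ctrl and at 301, 295 and 980.4 CPM in Lats1/2 KO. Each knockout library was under each control, but the library Lats1/2 KO 3 was well above the other two. The log2 fold change was −1.77 (SE 0.30, adjusted p = 8.6e-05), and −2.59 (adjusted p = 1.4e-09) without Lats1/2 KO 3.

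Slc10a1 showed the same order. It was at 278, 261, 264 and 188 CPM in the controls and at 49.9, 51.6 and 117 CPM in the knockouts (log2 fold change −1.76, SE 0.26, adjusted p = 1.8e-05). Slco1a1 was at 513, 446, 414 and 471 CPM in the controls and at 189.6, 164 and 362 CPM in the knockouts (−0.95, SE 0.20, adjusted p = 0.00067). In both genes Lats1/2 KO 3 was the knockout library nearest to the controls, without reaching them. In that library the summed cholangiocyte markers were also the lowest of the 3 (116 CPM without TMM scaling, against 246 and 354.5), and macrophage markers stood at 832, 743 and 1941 in Lats1/2 KO 3, 1 and 2.

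No change of Slco1a4 was detected in the knockout. The controls held 49.1, 46.6, 58.5 and 24.0 CPM and the knockouts 31.7, 40.2 and 71.0 CPM, which overlap widely. The log2 fold change was 0.10 (95% interval −0.54 to 0.75, adjusted p = 0.82), and it took a negative sign without Lats1/2 KO 3 (−0.31, adjusted p = 0.50). Its share of uptake counts was 1.75 ± 0.54% in the controls (n = 4) and 5.83 ± 1.35% in the knockouts (n = 3).

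Abcb11 fell in all 3 knockout libraries alike. It was at 411, 297, 311 and 378 CPM in Lats1/2 flox ctrl and at 174, 143 and 169 CPM in Lats1/2 KO, with no overlap (log2 fold change −1.11, SE 0.12, adjusted p = 1.3e-07). Abcc2 was at 254, 304, 310.4 and 317 CPM in the controls and at 238, 194 and 329.9 CPM in the knockouts. Those groups overlapped and the log2 fold change of −0.22 (95% interval −0.56 to 0.12) did not pass (adjusted p = 0.31). Without Lats1/2 KO 3 it was −0.46 and passed (adjusted p = 0.034), and with total counts alone it was 0.24 (adjusted p = 0.19).

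Abcc4 was at 1.54, 0.34, 0.95 and 0.099 CPM in the controls and at 1.90, 3.42 and 2.55 CPM in the knockouts. The groups did not overlap, and the log2 fold change was 1.86 (SE 0.50, adjusted p = 0.0047). It was 2.54 (adjusted p = 0.00085) without Lats1/2 flox ctrl 1, which held 14 of the 26 control counts.

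Abcc3 was at 35.8, 25.1, 32.6 and 19.8 CPM in the controls and at 36.7, 38.7 and 45.9 CPM in the knockouts. The lowest knockout library was just above the highest control. Its log2 fold change of 0.52 (SE 0.19, adjusted p = 0.035) was lost with limma voom (0.43, adjusted p = 0.092) and without Lats1/2 flox ctrl 2 (0.46, adjusted p = 0.09), Lats1/2 flox ctrl 4 (0.38, adjusted p = 0.13), Lats1/2 KO 2 (0.55, adjusted p = 0.066) or Lats1/2 KO 3 (0.41, adjusted p = 0.14).

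Slc51b was at 3.73, 2.27, 1.91 and 2.17 CPM in the controls and at 6.05, 4.72 and 2.07 CPM in the knockouts. The groups overlapped, and the log2 fold change of 0.75 (SE 0.42) did not pass (adjusted p = 0.16). It passed with total counts alone (1.22, adjusted p = 0.02) and without Lats1/2 KO 3 (1.09, adjusted p = 0.044).

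**Figure D2:**
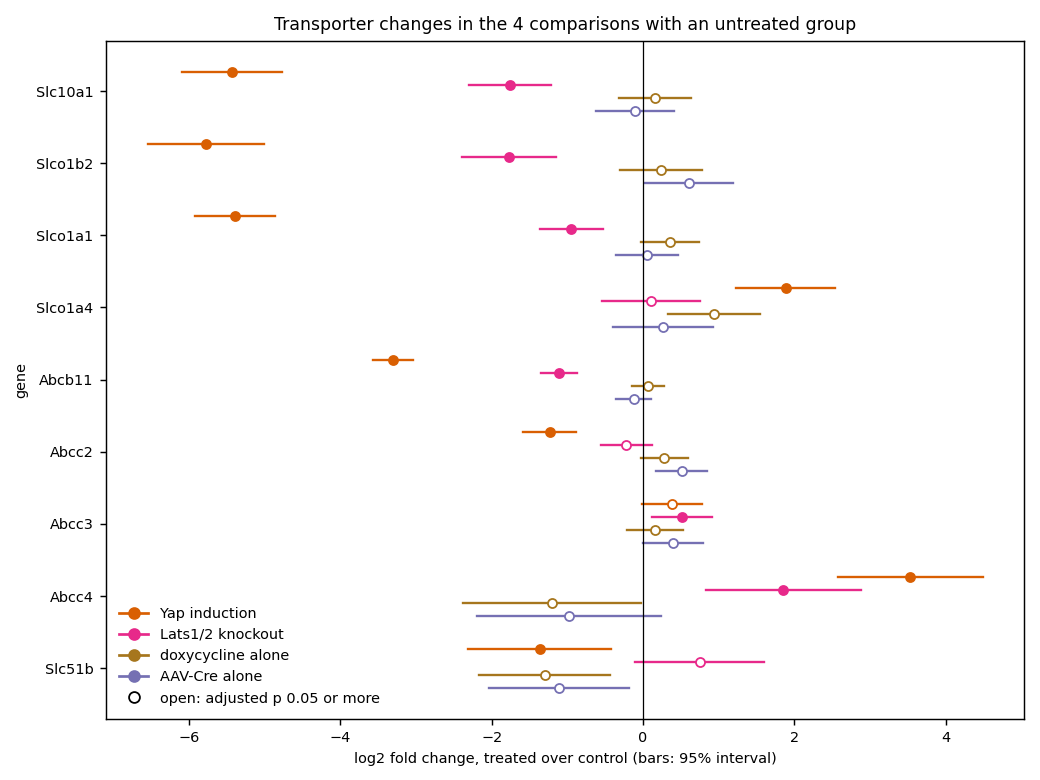
log2 fold change of the 9 tested members in the 4 comparisons with an untreated group of the same strain; bars are 95% intervals, and open circles mark an adjusted p of 0.05 or more. Slc10a1, Slco1b2 and Slco1a1 lie under −5 after Yap induction and between −0.95 and −1.77 in the knockout, and all circles for doxycycline alone and AAV-Cre alone are open.

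The balance between the export routes stood apart from that of the controls in both models. The sinusoidal exporters Abcc3 and Abcc4 over the canalicular Abcb11 and Abcc2, as a log2 ratio of counts within a library, went from −4.51 ± 0.43 (SD, n = 4) in ApoYap ctrl to −1.86 ± 0.35 (n = 3) in ApoYap Dox, a difference of 2.65. From Lats1/2 flox ctrl to Lats1/2 KO the ratio went from −4.51 ± 0.45 to −3.26 ± 0.23, a difference of 1.25. Neither pair of groups overlapped. Summed canalicular members were at 491 ± 36.1 CPM in ApoYap ctrl and 135 ± 26.7 CPM in ApoYap Dox, and the summed sinusoidal members at 24.2 ± 5.68 and 37.6 ± 2.55 CPM. The sinusoidal sum of ApoYap Dox was no higher than that of the BL/6 groups. These had means of 37.5 (BL/6 ctrl), 38.3 (BL/6 Dox) and 45.1 CPM (BL/6 AAV-Cre). Canalicular members still made up most of the export counts after induction, Abcc2 alone 64.6 ± 6.47%, with Abcc3 at 16.5 ± 2.89% and Abcc4 at 5.35 ± 1.35%.

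Among the uptake carriers, Slco1a4 over Slco1a1 stood at −3.70 ± 0.78 in ApoYap ctrl and 3.69 ± 0.31 in ApoYap Dox, so that the order of the pair was turned round. It was at −3.44 ± 0.62 in Lats1/2 flox ctrl and −2.32 ± 0.27 in Lats1/2 KO, where Slco1a1 remained the higher gene. Slc10a1 over Abcb11, uptake against export, went from 0.35 ± 0.10 to −1.86 ± 0.59 after induction. In the knockout it was −0.50 ± 0.38 in the controls and −1.27 ± 0.66 in the knockouts, with overlap. In exact two-sided permutation tests 5 of these 6 differences reached p = 0.057, the smallest that 3 against 4 libraries can give (0.069 after adjustment over the 6), and Slc10a1 over Abcb11 in the knockout gave p = 0.17. This exact test cannot go under 0.05 with 3 against 4 libraries.

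**Figure D3:**
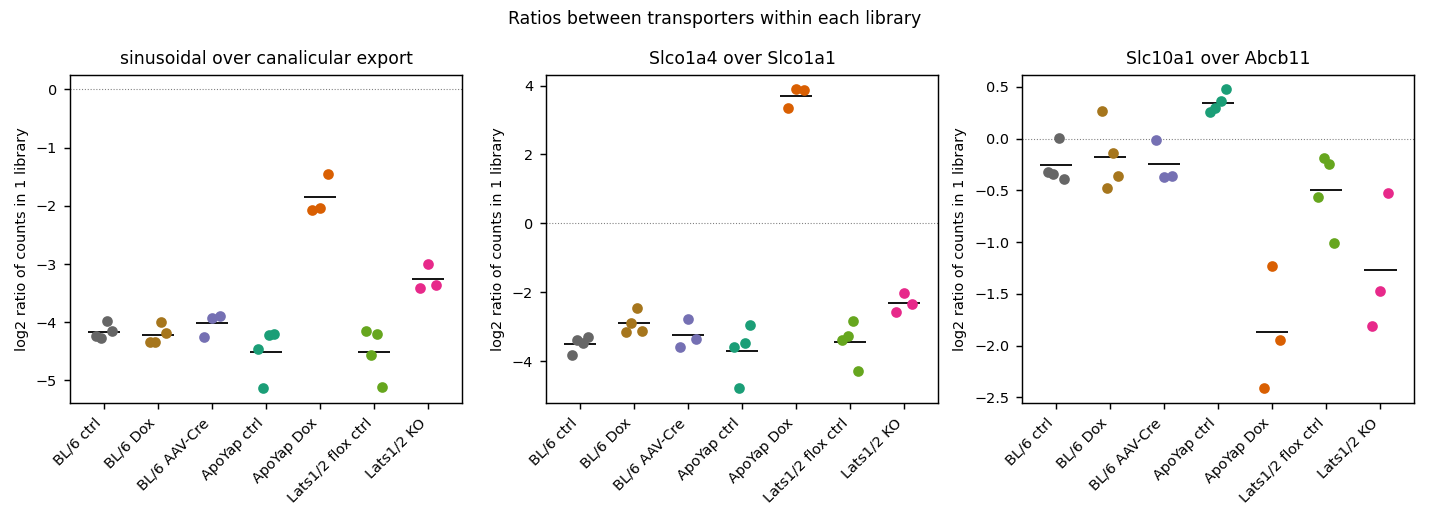
log2 ratios of transporter counts within each library, by group; points are libraries, bars are group means and the dotted line is equal counts. Slco1a4 exceeds Slco1a1 in the 3 ApoYap Dox libraries and in no other, and sinusoidal over canalicular export is highest in ApoYap Dox, followed by Lats1/2 KO.

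Doxycycline alone changed no member at an adjusted p under 0.05, with 0.123% of all genes called. At an unadjusted p under 0.05 there were 3 members, and DESeq2 and limma voom called 0. These 3 are Slco1a4, Abcc4 and Slc51b. Slco1a4 was at 24.0, 32.7, 33.1 and 40.2 CPM in BL/6 ctrl and at 56.7, 61.6, 75.4 and 54.6 CPM in BL/6 Dox. The groups did not overlap, yet the log2 fold change of 0.94 (SE 0.29) had an adjusted p of 0.22. Abcc4 gave −1.20 (SE 0.57, adjusted p = 0.41), against the direction seen in ApoYap Dox. Slc51b was at 2.94 to 4.48 CPM in BL/6 ctrl and 0.78 to 2.92 CPM in BL/6 Dox (−1.30, SE 0.42, adjusted p = 0.22). Between BL/6 ctrl and BL/6 Dox 4 of the 9 tested members (Slco1a1, Slco1a4, Abcc2 and Slc51b) did not overlap, against 6.62% of all genes.

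The change in ApoYap mice less that in BL/6 mice, tested as 1 contrast, had 5 members lower and 1 higher, with 54.1% of all genes called (26.7% higher and 27.4% lower). Slc10a1 (−5.59), Slco1a1 (−5.75), Slco1b2 (−6.02), Abcb11 (−3.37) and Abcc2 (−1.52) were as far down as before, and Abcc4 was at 4.73 (SE 0.73, adjusted p = 6.1e-06). The Abcc4 value includes its fall in BL/6 Dox (−1.20, not called), where the libraries held only 1, 6, 4 and 5 counts. Slco1a4 was at 0.95 (SE 0.43) and did not pass in edgeR (adjusted p = 0.068). It passed with DESeq2 (1.04, adjusted p = 0.023), limma voom (1.04, adjusted p = 0.018) and RLE scaling (1.04, adjusted p = 0.043). Slc51b came to −0.06 (SE 0.56, adjusted p = 0.94).

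The virus alone changed no member either, with 0.301% of all genes called (0.254% higher and 0.0463% lower). There were 3 members at an unadjusted p under 0.05 (Slco1b2, Abcc2 and Slc51b). DESeq2 called 0 and limma voom 1, Abcc2 (0.49, adjusted p = 0.029). Abcc2 stood at 394, 337 and 484 CPM in BL/6 AAV-Cre and 276 to 299 CPM in BL/6 ctrl, without overlap (0.51, SE 0.16, adjusted p = 0.16). With only the compared groups in the fit it passed (0.51, adjusted p = 0.012), as did Slco1b2 (adjusted p = 0.0013, against 0.36 in the fit over all groups). Between BL/6 ctrl and BL/6 AAV-Cre 4 of the 9 tested members did not overlap, against 15.8% of all genes.

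In the knockout less the effect of the virus 5 members were lower and 2 higher, Abcc4 and Slc51b, with 24.4% of all genes called (13.0% higher and 11.4% lower). The virus groups were sampled at 24 hours and at 1 week, so the time since injection and the floxed alleles cannot be told apart. Slco1b2 was at −2.38 (SE 0.41, adjusted p = 0.00029) and Abcb11 at −0.98 (SE 0.16, adjusted p = 0.00015). Abcc4 was at 2.83 (SE 0.78, adjusted p = 0.0096), while Abcc3, called in the knockout itself, came to 0.12 (SE 0.27) and did not pass (adjusted p = 0.79). Abcc2, not called in the knockout itself, came to −0.73 (SE 0.23, adjusted p = 0.023), and −0.29 (adjusted p = 0.31) with total counts alone. Its adjusted p was 0.091 without BL/6 AAV-Cre 3, 0.058 without Lats1/2 KO 1 and 0.094 without Lats1/2 KO 2. Slc51b came to 1.86 (SE 0.61, adjusted p = 0.028), of which the fall in BL/6 AAV-Cre (−1.11) is a part. Its call was lost (adjusted p 0.052 to 0.089) without BL/6 ctrl 1, BL/6 AAV-Cre 1 or 3, Lats1/2 flox ctrl 3 or Lats1/2 KO 1 or 2.

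A direct test of the difference between the 2 models, knockout less induction, called 7 members, 6 higher and 1 lower, with 29.8% of all genes called (17.4% higher and 12.4% lower). Slco1a1 differed most (4.44, SE 0.30, adjusted p = 9.3e-11), then Slco1b2 (4.01), Slc10a1 (3.67), Abcb11 (2.20), Slc51b (2.11) and Abcc2 (1.01). Slco1a4 was lower (−1.78, SE 0.44, adjusted p = 0.0046). Abcc4 did not pass (−1.68, SE 0.71, adjusted p = 0.076), although it did with DESeq2 (−1.72, adjusted p = 0.048). Abcc3 differed by 0.14 (95% interval −0.42 to 0.70, adjusted p = 0.75). The models differ in strain, agent and transgene, which cannot be told apart here.

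The untreated strains were compared as well. Between ApoYap ctrl and BL/6 ctrl, 1 member was called, with 0.439% of all genes (0.146% higher and 0.293% lower): Abcb11 was at 198 to 247 CPM against 287 to 333 CPM (log2 fold change −0.50, SE 0.11, adjusted p = 0.023). Its call was lost without any of 6 of the 8 libraries (BL/6 ctrl 1, 2 or 4, ApoYap ctrl 1, 3 or 4), with adjusted p from 0.057 to 0.18. In that comparison 4 members had an unadjusted p under 0.05. Of the 9 tested members 4 (Slco1a1, Abcb11, Abcc3 and Slc51b) did not overlap, against 7.05% of all genes. Between Lats1/2 flox ctrl and BL/6 ctrl no member was called by edgeR, DESeq2 or limma voom, none had an unadjusted p under 0.05, 1 did not overlap (Slco1a1, against 13.7% of all genes), and 4.12% of all genes were called (3.15% higher and 0.971% lower).

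Over all 7 groups, ordered by mean level, neighbours without overlap were found at 3 steps for Abcb11, at 2 for Slc10a1, Slco1b2, Slco1a1, Abcc2 and Abcc4, at 1 for Abcc3 and at 0 for Slco1a4 and Slc51b. Mean Slc10a1 ran from 298.5 CPM in BL/6 Dox through 288 (ApoYap ctrl), 267 (BL/6 ctrl), 248 (BL/6 AAV-Cre) and 248 (Lats1/2 flox ctrl), neighbours that all overlapped, to 72.9 in Lats1/2 KO and 6.68 in ApoYap Dox, each apart from the group above. Slco1b2 had the same 2 groups at the bottom, and its other 5 groups, at means of 1265 to 1930 CPM, overlapped from neighbour to neighbour. For Abcb11 the last 3 steps, from BL/6 AAV-Cre (293 CPM) to ApoYap ctrl (226), Lats1/2 KO (162) and ApoYap Dox (22.9), were each without overlap. For Abcc4 ApoYap Dox (8.98 CPM) and Lats1/2 KO (2.62) stood apart at the top, and the other 5 groups overlapped at 0.47 to 1.09 CPM. Slco1a4 had no gap: each group overlapped the next, from 82.5 CPM in ApoYap Dox through 62.1 in BL/6 Dox to 22.4 in ApoYap ctrl. Slco1a1 had its gaps between BL/6 ctrl (363 CPM) and ApoYap ctrl (271) and between Lats1/2 KO (238) and ApoYap Dox (6.42). Abcc2 had its gaps between BL/6 Dox (345) and Lats1/2 flox ctrl (296) and between Lats1/2 KO (254) and ApoYap Dox (112). The single gap of Abcc3 was between ApoYap Dox (27.9) and ApoYap ctrl (21.5).

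The pair Slc10a1 and Abcb11 had a Pearson correlation of log2 CPM of 0.957 over the 25 libraries and −0.273 over the 19 outside ApoYap Dox and Lats1/2 KO. Slco1a1 and Slco1a4 were at −0.418 over 25 libraries and 0.61 over the 19. Both values turned sign once the 6 libraries of the treated models were left out, and libraries of a group share strain and treatment, so these are descriptions only. The genes whose log2 CPM over 25 libraries was most like that of Slc10a1, among 8688 candidates, were Aldh8a1 (Pearson 0.995), Hsd11b1 (0.992) and Slc31a1 (0.991). For Abcb11 they were Slc22a7 (0.988), C8g (0.986) and Aox3 (0.985), and for Abcc4 Arrb1 (0.955), Anxa2 (0.951) and Hdac7 (0.95). For Slco1a4 they were Tnrc18 (0.796), Fbxo42 (0.792) and Arid1a (0.788). Over the 19 libraries outside ApoYap Dox and Lats1/2 KO the same pairs were at 0.563, 0.703 and 0.591 for Slc10a1, at 0.749, 0.718 and 0.805 for Abcb11, at 0.847, 0.792 and 0.81 for Abcc4 and at 0.783, 0.756 and 0.769 for Slco1a4.

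**Figure D4:**
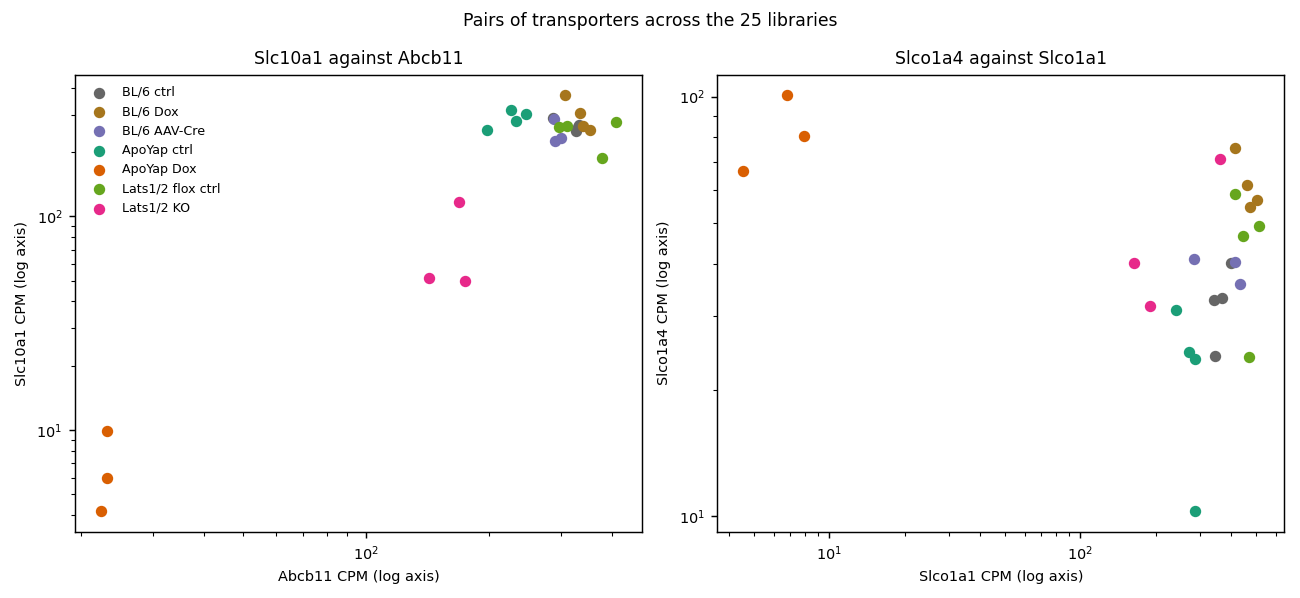
Slc10a1 against Abcb11 and Slco1a4 against Slco1a1, in CPM with TMM scaling on log axes; each point is 1 of the 25 libraries, coloured by group. The ApoYap Dox libraries lie apart at low Slc10a1 and Abcb11, and at low Slco1a1 with high Slco1a4, while the 19 libraries outside ApoYap Dox and Lats1/2 KO lie together at high Slc10a1 and Slco1a1.

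Other genes of bile acid handling are given for context, and their counts stand beside a background of 35.0% of all genes higher and 32.0% lower after induction and of 20.6% and 17.4% in the knockout. All 16 enzymes of bile acid synthesis and conjugation were tested. After Yap induction 14 fell and 0 rose, with a median of −1.72. The smallest p-values were those of Slc27a5 (−3.56, SE 0.20), which attaches coenzyme A to bile acids, Scp2 (−2.36, SE 0.15) and Hsd3b7 (−4.03, SE 0.27), while the largest fall was that of Cyp7b1 (−5.39, SE 0.52), named after its value was seen. Cyp7a1, which starts the classical pathway, was at −2.73 (SE 0.82, adjusted p = 0.0067). In the knockout 8 fell and 0 rose (median −0.68), with Scp2 at −1.34 (SE 0.15) and Slc27a2 at −1.46 (SE 0.20). Cyp7a1 gave −1.47 (SE 0.74, adjusted p = 0.13) there.

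Of 14 regulators 13 were tested. After induction 12 fell and 1 rose. SHP (Nr0b2) fell by 6.01 in log2 units (SE 0.49, adjusted p = 1.1e-09), FXR (Nr1h4) by 1.28 (SE 0.19, adjusted p = 2.3e-06) and HNF4A (Hnf4a), a master regulator of hepatocyte genes, by 1.27 (SE 0.15, adjusted p = 5.9e-08). The gene that rose, Nfe2l2, encodes the stress factor NRF2 and was at 1.20 (SE 0.11, adjusted p = 4.7e-10). In the knockout 3 fell and 1 rose: Hnf4a was at −0.63 (SE 0.15, adjusted p = 0.0016), Nr1h4 at −0.56 (SE 0.19, adjusted p = 0.021), Nr5a2 at −0.43 (SE 0.14, adjusted p = 0.022) and Nfe2l2 at 1.34 (SE 0.11, adjusted p = 1.7e-09). Nr0b2 gave −0.64 (SE 0.35) and did not pass (adjusted p = 0.16).

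Among 10 other canalicular and bile lipid transporters, 6 fell and 2 rose after induction. Abcg2 (−2.09, SE 0.12), Tmem30a (−1.46, SE 0.10) and the phospholipid transporter Abcb4 (−2.21, SE 0.16) fell. The drug efflux pumps Abcb1a (4.63, SE 0.39) and Abcb1b (2.16, SE 0.68) rose, and they rose in the knockout too (3.46 and 2.05), where 3 of the 10 fell. Of 9 other sinusoidal carriers 7 were tested: 4 fell, among them Slc10a5 (−2.72) and Slco2b1 (−2.42), and Slco3a1 rose (2.20). Slco3a1 rose in the knockout as well (1.67, adjusted p = 7e-04), together with Slco2a1 (0.30, adjusted p = 0.035). Of 10 genes of canalicular scaffold and trafficking, 4 rose and 3 fell after induction, about the share over all genes. Ezr, which links membrane proteins to actin, rose by 3.48 (SE 0.27) and, in the knockout, by 2.03 (SE 0.28), whereas Rdx, which encodes the related protein radixin of hepatocytes, fell by 0.70 and by 0.36.

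Beside the members that rose, the markers of other cells were as follows. Of 10 cholangiocyte markers 4 could be tested. After induction Spp1 rose (5.40, SE 0.49) and Sox9 was at −0.08 (adjusted p = 0.84), and in the knockout Sox9 (1.26) and Spp1 (3.24) rose. Their sum ran from 40.8 to 51.97 CPM without TMM scaling in ApoYap ctrl and from 274 to 400 in ApoYap Dox. The keratins Krt19 and Krt7 were at most 0.47 and 0.33 CPM in ApoYap Dox, and no cholangiocyte, macrophage or endothelial marker was at 0 over that group. Neutrophil markers rose in 4 of the 4 tested after induction and in 2 of 4 in the knockout, with Ly6g at 0 in both. Stellate cell and fibroblast markers rose in 4 of 10 after induction, near the 35.0% of all genes called higher there. In the knockout 9 of 10 rose, against 20.6% of all genes. The part of these cells in the higher Slco1a4, Abcc3 and Abcc4 was not tested.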

How the data were processed

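Hepatocytes were sorted from dissociated mouse liver, with RNA taken from 500000 cells per sample, and 3′ end libraries were made with a QuantSeq FWD kit, per the labels' protocols. Reads were handled with FastQC, cutadapt and STAR 2.6.1d, with mm10 (GRCm38) as genome, as the submitters' processing notes list them. Which tool counted the reads, with which annotation and strand setting, is not given in the sources used here. The authors deposited 1 table of raw counts, with no normalization, for 37117 genes in 25 libraries.

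The main analysis used edgeR 4.0.16 in R 4.3.3 (filterByExpr with minimum count 10 and minimum total 15, TMM scaling, robust quasi-likelihood fit of 1 mean per group over all 25 libraries). Of all genes 12970 were tested, with Benjamini-Hochberg adjustment over these in each contrast and 0.05 as threshold. Standard errors are log2 fold changes over the square root of F. Levels are CPM with TMM scaling. The totals of 8107539 to 16515330 counts per library make 1 count worth 0.036 to 0.14 CPM. Ratios of counts within a library had 0.5 added to each count and were compared by exact permutation tests. Correlations used log2 CPM with a prior count of 2. The lowest chi-square per degree of freedom between replicates was 7.69 over 33 pairs, and no pair was identical. Tests were also tried on simulated data, whose levels and spread were taken from the main fit.

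Gene coordinates came from GENCODE M21 (GRCm38) and upstream sequences from RefSeq (GRCm38.p6), in which Abcc3 had no entry. The members, the lists of pathway and marker genes and the motifs were chosen with earlier results of these data known, so they are no independent support. The text names all members, up to 3 called genes with the smallest p per pathway list and direction, Nr1h4, Nr0b2, Hnf4a and Cyp7a1, and the 3 genes most correlated with Slc10a1, Abcb11, Slco1a4 and Abcc4 (average log2 CPM of at least 2). Shares of uptake and export counts were added after seeing the data. The hepatocyte marker Tf was not matched. The results for 2 of the listed genes are not reported here.

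Alternatives were DESeq2 1.42.0, limma 3.58.1 voom with sample weights, scaling by RLE, by total counts alone or without the 50 most abundant genes, another filter (5 CPM in 3 libraries) or no filter, a fit to only the compared groups, a replicate block, a threshold of 0.01 and leaving out single libraries.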

Additional observations from a re-analysis of the deposited data

Results flagged for a closer look

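In groups of 4 libraries, 2 of the 36 group and member pairs checked held a library set far from the other 3, where about 1 in 20 would by chance. Abcb11 was at 286.6 CPM in BL/6 ctrl 3, under the other BL/6 ctrl libraries, and Abcc3 was at 12.74 CPM in ApoYap ctrl 2.

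The response to doxycycline differed between ApoYap and BL/6 mice for 6 members when the difference itself was tested with edgeR. It was −5.594 for Slc10a1 (adjusted p = 4.4e-11), −5.745 for Slco1a1 (1.6e-13), −6.018 for Slco1b2 (1.4e-10), −3.368 for Abcb11 (4.1e-14), −1.516 for Abcc2 (4e-06) and 4.733 for Abcc4 (6.1e-06), on the log2 scale. All 3 ApoYap Dox libraries lay on the same side of all 4 ApoYap ctrl libraries for each of these genes.

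The response to the Lats1/2 knockout less that to Yap induction differed for 7 members, tested in the same way. It was 3.674 for Slc10a1 (adjusted p = 1.2e-07), 4.441 for Slco1a1 (9.3e-11), 4.012 for Slco1b2 (2.3e-07), 2.196 for Abcb11 (4.1e-10), 1.013 for Abcc2 (0.0018) and 2.112 for Slc51b (0.011), each less lowered or higher in the knockout. For Slco1a4 it was −1.778 (0.0046).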

How the results depend on the processing

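Of 1206 planned values of single members under other settings, 1142 kept direction and call, 20 lost the call, 24 gained it and 20 changed sign. Of 302 added values for the untreated strains, 288 kept both, 6 lost and 4 gained the call and 4 changed sign. All sign changes were in members that were not called. Small changes and members at a few CPM are limited by depth, and the 5 CPM filter leaves Slc51b untested. Abcc4 passes that filter only through the ApoYap Dox libraries, at 15.05, 14.36 and 18.14 CPM without TMM scaling.

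Replicate numbers did not pair the libraries: same-numbered libraries correlated at 0.052 to 0.164 after removing group means for Yap induction and at −0.24 to 0.022 for the knockout. With the replicate number as a block 8 members were called for Yap induction and 6 for the knockout, as without it, and 8544 and 4724 genes.

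For doxycycline alone 16 genes were called, against 112 with DESeq2, 99 with voom, 4 at an adjusted p under 0.01 and 4 to 32 without single libraries. For AAV-Cre alone 39 genes were called, against 169 with DESeq2, 565 with voom, 502 with only the compared groups, 10 at 0.01 and 7 to 121 without single libraries, and 0 members against 1 with voom and 2 with only the compared groups. Net of AAV-Cre, a threshold of 0.01 left 4 members and 1658 genes, and for knockout less induction 2369 genes. For ApoYap ctrl against BL/6 ctrl members numbered 2 with voom and with only the compared groups, 0 at 0.01 and 0 to 1 without single libraries. Genes numbered 57, against 110 with DESeq2, 169 with voom, 195 with only the compared groups, 32 at 0.01 and 33 to 50 without single libraries. For Lats1/2 flox ctrl against BL/6 ctrl 2 members were called with only the compared groups, and genes numbered 535, against 1199 with voom, 823 with only the compared groups, 151 at 0.01 and 202 to 429 without single libraries. The cause was not tested.

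Sign changes with voom were Slco1a4 in the knockout (−0.266) and Slco1a1 with AAV-Cre alone (−0.023). With total counts alone they were Abcc2 in the knockout (0.236), Slc51b net of doxycycline (0.844, and 0.036 with DESeq2, 0.034 with RLE scaling), Slco1a4 net of AAV-Cre (0.275) and Abcc3 in knockout less induction (−0.317). Without single libraries the values that crossed 0 ran from −0.306 to 0.326 for Slco1a4 in the knockout, −0.062 to 0.215 for Slco1a1 with AAV-Cre alone, −0.596 to 0.525 for Slc51b net of doxycycline, −0.573 to 0.06 for Slco1a4 and −0.017 to 0.289 for Abcc3 net of AAV-Cre, −0.001 to 0.323 for Abcc3 in knockout less induction, −0.068 to 0.082 for Slco1b2 in untreated ApoYap and −0.169 to 0.002 for Slc10a1 in untreated Lats1/2 flox. The correlations of Slc10a1 with Abcb11 and of Slco1a1 with Slco1a4 were −0.273 and 0.61 over 19 libraries.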
